A study of Homo sapiens with 4 samples.

Results

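The genes described here are those of serine synthesis and of the folate one-carbon cycle. They are PHGDH, PSAT1 and PSPH, which make serine, SHMT1 and SHMT2, which pass its side-chain carbon to folate, MTHFD1, MTHFD2, MTHFD1L and ALDH1L2, which interconvert and oxidise the carbon units on folate, and SLC1A4, a carrier of serine and other neutral amino acids. They were chosen by name for their place in this route, with PHGDH picked also for its high level in these lines, so that level is given as a description only. All 10 were found by symbol among the 50653 genes of the table. All 10 passed the filter of a mean of at least 1 FPKM (fragments per kilobase of transcript, scaled to the size of the library), as did 14321 genes in all.

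The study asked which transcripts differ when quinolinate phosphoribosyltransferase (QPRT), the enzyme that feeds quinolinate into de novo NAD synthesis, is silenced in breast cancer cells. The cells were BT-20 and MDA-MB-468, established human triple-negative breast cancer lines, the second of which the labels write MB-468. Cells of each line were transduced with a lentivirus carrying a control shRNA or an shRNA specific for QPRT and selected with puromycin, so all 4 groups carry a lentiviral vector and were exposed to puromycin. A short hairpin RNA (shRNA) is cut by the cell to a short guide, which leads to loss of the mRNA it pairs with. Each of the 4 groups (BT-20 control shRNA, BT-20 QPRT shRNA, MDA-MB-468 control shRNA and MDA-MB-468 QPRT shRNA) is 1 library, and values are given below in that order. The methods give Eagle's minimum essential medium for BT-20 and Leibovitz's medium for MDA-MB-468, so cell line and medium cannot be told apart. Whether the QPRT-depleted cells are 1 clone or a selected pool is not given in the sources used here.

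Serine is made from the glycolytic intermediate 3-phosphoglycerate. PHGDH oxidises it with NAD, PSAT1 transfers an amino group from glutamate, and PSPH removes the phosphate. SHMT2 in mitochondria and SHMT1 in the cytosol split serine into glycine and a one-carbon unit bound to tetrahydrofolate. In mitochondria MTHFD2 oxidises that unit, MTHFD1L releases it as formate for export, and ALDH1L2 oxidises it to carbon dioxide. In the cytosol the single protein MTHFD1 carries out the steps that correspond to those of MTHFD2 and MTHFD1L. Several of these genes are known targets of the stress-responsive transcription factor ATF4, and PHGDH is known for its high expression in a subset of breast cancers.

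The libraries had been scaled to between 10321996 and 10945948 fragments. QPRT itself, on GRCh38 chr16:29679008-29698699 (plus strand), was at 249 FPKM in BT-20 control shRNA, 40.5 in BT-20 QPRT shRNA, 117 in MDA-MB-468 control shRNA and 18.3 in MDA-MB-468 QPRT shRNA. It was more than 2-fold lower with QPRT shRNA in both lines, the direction its labels state, with a limma log2 difference of -2.60 (SE 0.205, adjusted p = 1.42e-32). At the same difference the call was lost without the cell line block (adjusted p = 0.99997) and without a filter on low values (0.26), and over the other 7 settings the limma adjusted p ran from 2.23e-34 to 8.39e-04. All 8 breast epithelial markers were above 0 in every library, with a summed level of 6977 to 10120 FPKM. KRT14 was close to 0 in BT-20, at 0.33 and 0.161 FPKM on 4 and 2 fragments, against 5.76 and 40.6 FPKM in MDA-MB-468. In limma KRT14 passed between the shRNAs, at 1.21 (SE 0.282, adjusted p = 0.00598), a value that rests on MDA-MB-468. Of the receptor genes that triple-negative cells should lack, PGR was at 0 in every library while ESR1 was at 5.51, 5.76, 1.87 and 1.05 FPKM. Markers of intestinal, gastric and plasma cells moved with the shRNA. All 21 of them were lower with QPRT shRNA in both lines, beside 42.98% (BT-20) and 47.64% (MDA-MB-468) of all genes tested. The list was picked when earlier results of these data were known, so this shared direction is a description only. Their sum was 114 FPKM in BT-20 control shRNA, 49.0 in BT-20 QPRT shRNA, 240 in MDA-MB-468 control shRNA and 48.9 in MDA-MB-468 QPRT shRNA. Only TFF1 was at 0, in BT-20 QPRT shRNA. The summed level of 12 fibroblast, endothelial and blood cell markers was 136, 164, 39.0 and 44.5 FPKM, with CD3E at 0 in 3 of the libraries, and in BT-20 most of it was CDH5, at 96.5, 134, 1.24 and 0.912 FPKM. In bulk RNA fewer cells of a type and less RNA per cell cannot be told apart. The source of these marker transcripts was not tested, nor was the part of these markers in the results below.

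PHGDH was the most abundant of the 10 transcripts in every library, and ALDH1L2 was the least abundant in all but MDA-MB-468 control shRNA, where SHMT1 was. In BT-20 control shRNA the order of the FPKM levels was PHGDH, SHMT2, PSPH, PSAT1, SHMT1, MTHFD2, MTHFD1, SLC1A4, MTHFD1L and ALDH1L2. In MDA-MB-468 control shRNA it was PHGDH, PSPH, SHMT2, PSAT1, MTHFD2, MTHFD1, MTHFD1L, SLC1A4, ALDH1L2 and SHMT1. With 1 library per group there is no spread over samples, and neighbours in this order cannot be told apart beyond counting error. The order also depends on the length that FPKM divides by, which fitted the mean over the annotated transcripts of a gene. By fragments PSAT1 (4073) was above SHMT2 (3660) in BT-20 control shRNA. Ratios and sums of different genes given below depend on these lengths too, which are the same in every library. The sum of the 10 genes was 0.317%, 0.253%, 0.279% and 0.236% of all FPKM of a library. PHGDH alone made up 57.3% and 54.4% of that sum in the BT-20 libraries and 37.9% and 36.3% in the MDA-MB-468 libraries.

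**Figure D1:**
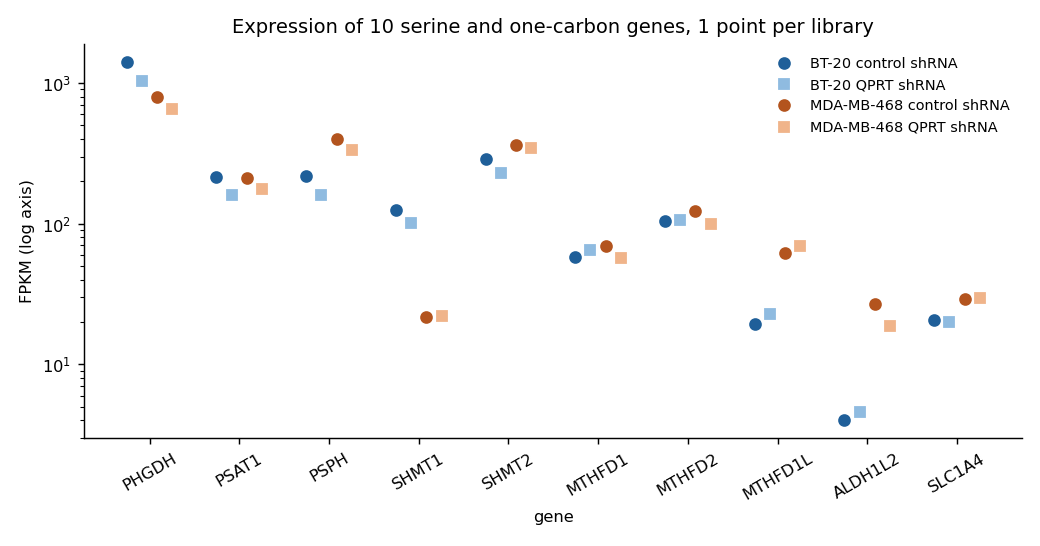
FPKM of the 10 genes on a log axis, 1 point per library, with BT-20 in blue, MDA-MB-468 in orange, circles for control shRNA and squares for QPRT shRNA. SHMT1 lies between 21.6 and 125 FPKM and ALDH1L2 between 4.0 and 26.9 FPKM, with the 2 lines apart in opposite directions, while the PSAT1 points of both lines lie between 160 and 213 FPKM.

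The first enzyme of serine synthesis, PHGDH, lies on GRCh38 chr1:119648411-119744226 (plus strand). It was at 1412 FPKM in BT-20 control shRNA, 1035 in BT-20 QPRT shRNA, 799 in MDA-MB-468 control shRNA and 657 in MDA-MB-468 QPRT shRNA. Both BT-20 libraries were above both MDA-MB-468 libraries, and in each line the QPRT shRNA library was the lower one. Among the 14321 genes tested it ranked 49, 62, 92 and 131 from the top.

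PSAT1, the aminotransferase, lies on chr9:78297143-78330093 (plus strand) and was at 213, 160, 213 and 175 FPKM. The levels of the 2 control libraries were almost equal, and both QPRT shRNA libraries were below them. PSPH, the phosphatase, lies on chr7:56011051-56051604 (minus strand) and was at 220, 159, 403 and 334 FPKM. Both MDA-MB-468 libraries were above both BT-20 libraries, the opposite of PHGDH.

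In BT-20, the log2(FPKM + 1) difference of QPRT shRNA minus control shRNA was -0.45 for PHGDH, -0.41 for PSAT1 and -0.47 for PSPH, which correspond to -26.7%, -24.8% and -27.8%. In MDA-MB-468 it was -0.28, -0.28 and -0.27, or -17.8%, -17.6% and -17.1%. Within a line the 3 genes thus differed from each other by little, and all 6 counting intervals lay below 0. For PHGDH, with 20042 and 15090 fragments in BT-20 against 11691 and 9058 in MDA-MB-468, the exact 95% interval of the log2 fragment ratio was -0.48 to -0.42 in BT-20 against -0.32 to -0.24 in MDA-MB-468. These intervals cover counting error only, since copies of 1 molecule made by PCR were not told apart and no second culture was sequenced. The sum of the 3 genes was 1845, 1354, 1415 and 1166 FPKM, a difference of -26.6% in BT-20 against -17.6% in MDA-MB-468.

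Differences of this size were not rare. Among all genes tested PHGDH, PSAT1 and PSPH stood at the percentiles 6.17, 7.56 and 5.60 of the BT-20 differences and 16.2, 16.7 and 17.3 of those in MDA-MB-468, counted from the lowest. A difference at least as low as that of the least changed of the 3 was seen in 1083 genes (7.56%) in BT-20, in 2473 (17.3%) in MDA-MB-468 and in 232 (1.62%) in both. None of the 10 genes reached 2-fold with QPRT shRNA in either line. Of all genes tested, 1.05% were higher by 2-fold or more in BT-20 with QPRT shRNA, 0.649% were lower by as much, and the shares for MDA-MB-468 were 1.03% and 0.866%.

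**Figure D2:**
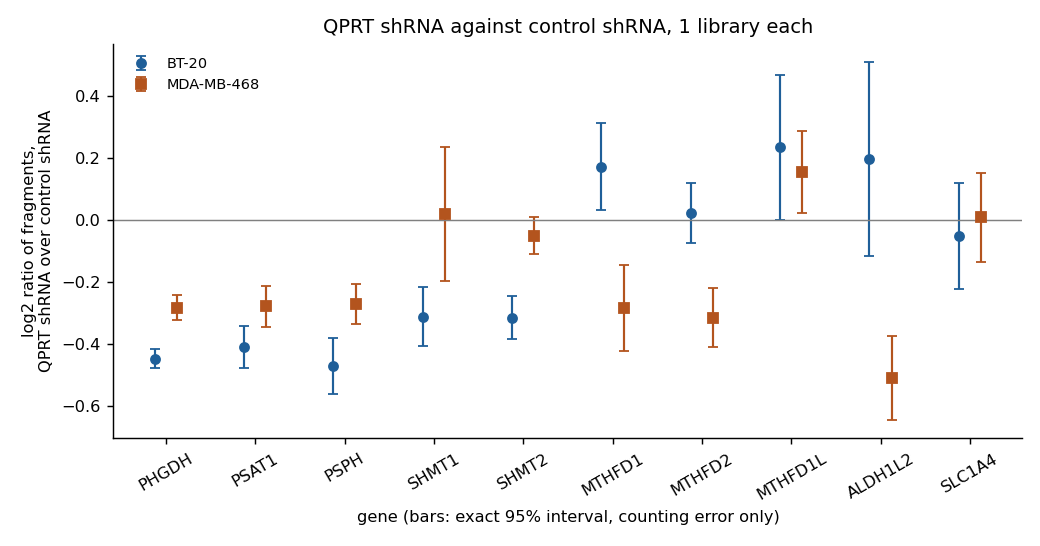
Log2 ratio of fragments, QPRT shRNA over control shRNA, for each gene in BT-20 (blue circles) and MDA-MB-468 (orange squares), 1 library per group, with bars for the exact 95% interval (counting error only). PHGDH, PSAT1 and PSPH lie below 0 in both lines, whereas MTHFD1 and ALDH1L2 lie above 0 in BT-20 and below 0 in MDA-MB-468.

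Over both lines, with limma on log2(FPKM + 1) and the cell line as a block, 0 of the 10 genes passed an adjusted p of 0.05, beside 0.628% of all genes tested. At an unadjusted p under 0.05 in limma the count was 1, PHGDH, beside 687 of all 14321 genes tested. Limma-voom on the recovered fragments also called 0 of the 10, beside 64 of 14232 genes. The limma log2 difference was -0.37 for PHGDH (SE 0.186), -0.34 for PSAT1 (SE 0.193) and -0.37 for PSPH (SE 0.191), each with an adjusted p of 0.9999. Over 9 other settings the adjusted p of PHGDH ran from 0.951 to 1. With 4 libraries the fit leaves each gene 1 residual degree of freedom, and the lines serve as the only repeats. The eBayes step of limma therefore draws on the spread of other genes, and an SE is not the spread of 1 gene alone.

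The median difference of the 10 genes with QPRT shRNA was -0.18 in BT-20 against -0.27 in MDA-MB-468, beside 0.048 and 0.011 over all genes tested. Differences between the shRNA libraries moved with the GC content of the transcripts, in opposite directions in the 2 lines. Spearman's rho over 14232 genes, which are not independent replicates, was -0.283 in BT-20 against 0.288 in MDA-MB-468. With the trend on GC content and length removed, PHGDH was at -0.37 and -0.36, PSAT1 at -0.52 and -0.20 and PSPH at -0.37 and -0.31 in BT-20 and MDA-MB-468, so the 3 kept their sign and PSAT1 moved away from the others.

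Of the serine hydroxymethyltransferases, SHMT1 was higher in BT-20 and SHMT2 higher in MDA-MB-468. Cytosolic SHMT1, on chr17:18327860-18363563 (minus strand), was at 125 and 101 FPKM in the BT-20 libraries and at 21.6 and 21.9 FPKM in the MDA-MB-468 libraries. Mitochondrial SHMT2, on chr12:57229327-57234935 (plus strand), was at 287, 231, 360 and 348 FPKM. The ratio of SHMT2 to SHMT1 within a library was 2.30 and 2.29 in BT-20 against 16.7 and 15.9 in MDA-MB-468. Within each line the ratio was nearly the same with either shRNA, and between the lines it did not overlap.

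With QPRT shRNA both genes were lower in BT-20, by a log2 difference of -0.31 for each, with counting intervals of -0.41 to -0.22 for SHMT1 and -0.39 to -0.25 for SHMT2. In MDA-MB-468 the differences were 0.019 for SHMT1 and -0.051 for SHMT2, and both intervals included 0. The value of SHMT1 in MDA-MB-468 turned to -0.0044 with upper quartile scaling, to -0.00067 as TPM and to -0.014 with the GC and length trend removed. Both genes overlap a gene on the opposite strand, SMCR8 at 5.58 to 8.09 FPKM for SHMT1 and NDUFA4L2 at 1.53 to 7.66 FPKM for SHMT2, and whether the counting used strand is not given in the sources used here.

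Of the enzymes that carry the unit onwards, MTHFD2 and MTHFD1 were at similar levels in the 2 lines. MTHFD2, the mitochondrial dehydrogenase on chr2:74198562-74217565 (plus strand), was at 104, 106, 123 and 99.1 FPKM. MTHFD1, its cytosolic counterpart on chr14:64388031-64463457 (plus strand), was at 57.8, 65.1, 69.5 and 57.0 FPKM. The libraries of the 2 lines overlapped for both genes. Their difference with QPRT shRNA was 0.17 for MTHFD1 and 0.021 for MTHFD2 in BT-20, while MDA-MB-468 gave -0.28 and -0.31. In MDA-MB-468 both were thus about as low as PHGDH, PSAT1 and PSPH, at -0.28, -0.28 and -0.27. For MTHFD2 in BT-20 the interval included 0, and the value was -0.066 with the GC and length trend removed.

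MTHFD1L, the mitochondrial formate-producing enzyme on chr6:150865549-151101887 (plus strand), was at 19.4 and 22.8 FPKM in BT-20 against 61.9 and 68.9 FPKM in MDA-MB-468. It was the one gene of the 10 that was higher with QPRT shRNA in both lines by the counting interval, at 0.22 in BT-20 (279 and 337 fragments, interval 0.00068 to 0.47) and 0.15 in MDA-MB-468 (919 and 964 fragments, interval 0.022 to 0.29). The limma difference of 0.19 did not pass (adjusted p = 0.9999).

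ALDH1L2, on chr12:105019784-105084577 (minus strand), was at 4.0 and 4.58 FPKM in BT-20 against 26.9 and 18.9 FPKM in MDA-MB-468. With QPRT shRNA the difference was 0.16 in BT-20, on 159 and 187 fragments and with an interval of -0.12 to 0.51, and -0.49 in MDA-MB-468, on 1101 and 729 fragments and with an interval of -0.65 to -0.37. The BT-20 value was -0.052 with the GC and length trend removed. ALDH1L2 has the lowest GC content of the 10 (42.1%) and the greatest mean transcript length (3742 bases), and it overlaps NOPCHAP1 on the opposite strand, which was at 15.5 to 23.7 FPKM.

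The carrier SLC1A4, on chr2:64988477-65023865 (plus strand), was at 20.7, 19.95, 29.3 and 29.5 FPKM. Its difference with QPRT shRNA was -0.049 in BT-20 against 0.0085 in MDA-MB-468, both with intervals around 0, and the second turned to -0.015 with upper quartile scaling and to -0.012 as TPM.

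Summed by compartment, the mitochondrial enzymes SHMT2, MTHFD2, MTHFD1L and ALDH1L2 were at 415, 364, 573 and 535 FPKM and the cytosolic enzymes SHMT1 and MTHFD1 at 183, 166, 91.1 and 79.0 FPKM. The ratio of the sums was 2.27 and 2.20 in BT-20 against 6.29 and 6.77 in MDA-MB-468. Only members are in these sums, and the cytosolic one holds no counterpart of ALDH1L2. That counterpart, ALDH1L1, is not a member and was at 30.1, 21.9, 0 and 0.047 FPKM. Among the single ratios, MTHFD2 to MTHFD1 was between 1.62 and 1.80 in all 4 libraries. MTHFD1L to MTHFD1 was 0.335 and 0.35 in BT-20 against 0.891 and 1.21 in MDA-MB-468. Along serine synthesis, PHGDH to PSAT1 was 6.63 and 6.46 in BT-20 against 3.76 and 3.74 in MDA-MB-468, and PHGDH to PSPH was 6.42 and 6.52 against 1.98 and 1.97. For PHGDH, PSAT1 and PSPH the ratios changed less with the shRNA than between the lines.

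Between the lines, 7 of the 10 genes passed the test in limma over both shRNAs, of which MDA-MB-468 was the higher line for 5 and the lower for 2, beside 55.1% of all genes tested. At this background the count does not set the 10 genes apart. The largest differences were those of SHMT1, at -2.31 on the log2 scale (SE 0.211, adjusted p = 1.64e-26), ALDH1L2, at 2.16 (SE 0.252, adjusted p = 1.88e-16), and MTHFD1L, at 1.59 (SE 0.216, adjusted p = 1.99e-12). PSPH was higher by 0.97 (SE 0.191, adjusted p = 1.69e-06) and PHGDH was at -0.74 (SE 0.186, adjusted p = 2.38e-04). SHMT2, at 0.46 (SE 0.190, adjusted p = 0.0303), and SLC1A4, at 0.51 (SE 0.227, adjusted p = 0.0446), passed narrowly.

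PSAT1, MTHFD1 and MTHFD2 did not pass, at 0.065, 0.037 and 0.077 with limma adjusted p of 0.797, 0.892 and 0.768. Here p-values measure only what the cell line and shRNA terms leave over, which is the spread of the shRNA difference between the lines. No group has a repeat library, so a technical part of that spread cannot be told apart. That spread is drawn in part from other genes, since each gene has 1 residual degree of freedom, so a low p-value does not rest on the gene alone. Without a filter on low values no gene passed, and SHMT2 and SLC1A4 lost their calls in other settings as well. SHMT2 was called in 7 of 9 other settings and SLC1A4 in 5, and over all 9 their limma adjusted p ran from 0.00248 to 0.443 and from 0.0175 to 0.216.

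Library by library, the difference of MDA-MB-468 minus BT-20 with control shRNA was at least 2-fold for MTHFD1L (1.63) and ALDH1L2 (2.48), both higher, and SHMT1 (-2.48), which was lower. With QPRT shRNA it was at least 2-fold for PSPH (1.07), MTHFD1L (1.56) and ALDH1L2 (1.83), all higher, and SHMT1 (-2.15), which was lower. Over all genes tested, 18.3% were higher by 2-fold or more and 13.2% lower with control shRNA, and 17.4% higher and 13.9% lower with QPRT shRNA. PSPH lay on both sides of this limit, at 0.87 with control shRNA, while PHGDH was at -0.82 and -0.66. The median of all genes tested was itself 0.12 with control shRNA and 0.068 with QPRT shRNA.

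**Figure D3:**
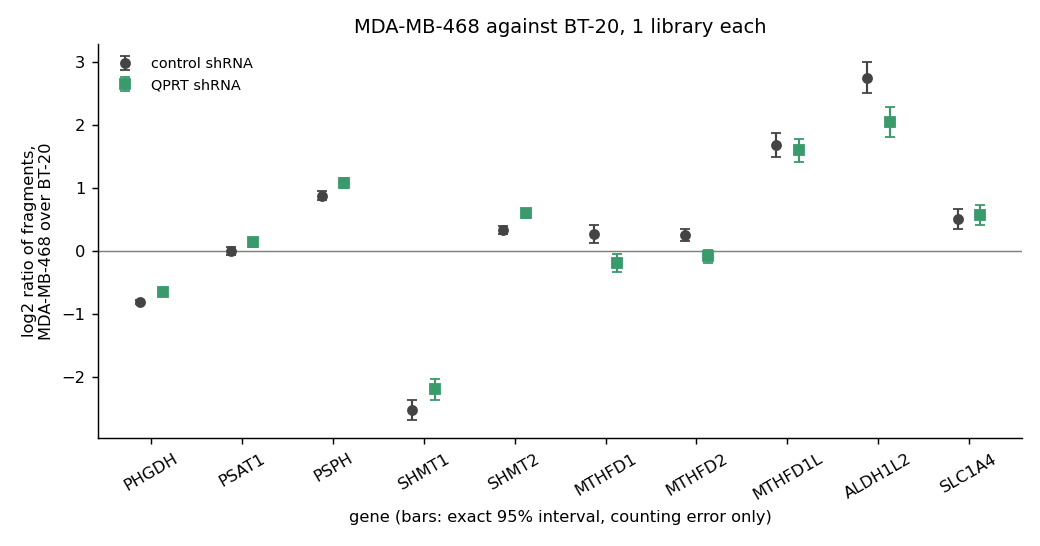
Log2 ratio of fragments, MDA-MB-468 over BT-20, for each gene with control shRNA (dark circles) and with QPRT shRNA (green squares), 1 library per group, with bars for the exact 95% interval (counting error only). SHMT1 lies below -2 and ALDH1L2 above 2 with either shRNA, and MTHFD1 and MTHFD2 lie on both sides of 0.

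PSPH has an annotated unprocessed pseudogene on the same chromosome, PSPHP1, at chr7:55764797-55773288 (plus strand), and the 2 were compared because reads from shared stretches could be assigned to either. PSPHP1 was at 0 FPKM in BT-20 control shRNA, 3.51 in BT-20 QPRT shRNA, 430 in MDA-MB-468 control shRNA and 390 in MDA-MB-468 QPRT shRNA, or 0, 10, 1228 and 1052 fragments. It was at least 397-fold higher in MDA-MB-468 than in BT-20 with control shRNA, counted against a floor of 3 fragments in the BT-20 library. The annotated transcript has only 261 bases, so its FPKM is high for its fragments. Limma also called PSPHP1 in the shRNA comparison, at 1.02 (SE 0.223, adjusted p = 0.00204), but that value rests on the 10 fragments in BT-20 QPRT shRNA, against a value of -0.14 in MDA-MB-468. The call held in 5 of 9 other settings, with an adjusted p in limma from 1.2e-18 to 1 over the 9, and limma-voom gave 0.065.

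Bases 1 to 150 of the PSPHP1 transcript aligned without gaps to bases 1032 to 1181 of the PSPH transcript PSPH-201, inside its coding sequence, with 4 mismatches (97.33% identity). Both are printed 5′ to 3′ in the sense of the transcript from the GENCODE 29 transcripts, with the mismatched bases in capitals.
PSPHP1: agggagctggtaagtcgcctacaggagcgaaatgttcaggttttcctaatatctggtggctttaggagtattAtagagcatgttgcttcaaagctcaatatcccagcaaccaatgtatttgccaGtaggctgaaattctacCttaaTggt
PSPH-201: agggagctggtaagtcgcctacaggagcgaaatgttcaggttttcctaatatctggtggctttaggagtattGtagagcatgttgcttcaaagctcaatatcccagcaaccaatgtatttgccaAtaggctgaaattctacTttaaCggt

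With so few mismatches a fragment can match both genes, and how the counting treated such fragments is not given in the sources used here. Adding the fragments of PSPHP1 to PSPH raised the line difference from 0.87 to 1.23 with control shRNA and from 1.07 to 1.45 with QPRT shRNA, so PSPH was then at least 2-fold higher with either shRNA. The shRNA differences of PSPH moved to -0.46 in BT-20 against -0.24 in MDA-MB-468. Other annotated copies of the 10 genes held at most 3 fragments in a library. These were SHMT1P1, with 3 in BT-20 QPRT shRNA, and MTHFD1P1, with 3 in MDA-MB-468 QPRT shRNA.

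Many genes around PSPH differed between the lines in the same direction. This comparison of neighbours was chosen after the values were seen. Within 1 Mb of PSPH, 16 genes were tested, and the median of their line differences was 1.41 (control shRNA) or 1.2 (QPRT shRNA), beside 0.12 and 0.068 over all genes tested. With either shRNA 8 of them were at least 2-fold higher in MDA-MB-468 and 2 at least 2-fold lower. Over all genes tested, 18.3% were higher by as much and 13.2% lower with control shRNA, and 17.4% and 13.9% with QPRT shRNA. The 8 include the pseudogenes PSPHP1, ENSG00000273720 and ENSG00000233028, and the 2 include the pseudogene CALM1P2. EGFR, the epidermal growth factor receptor, was at 180, 262, 820 and 951 FPKM. LANCL2 was at 92.2, 85.6, 761 and 763 FPKM and VOPP1 at 394, 370, 1713 and 1883 FPKM.

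The tested genes on either side of PSPH shared this direction, though below 2-fold, and some genes further out did not. CCT6A, a chaperonin subunit whose annotated start lies beside that of PSPH on the opposite strand, was at 1019, 1097, 1707 and 1566 FPKM. Its line differences were 0.74 (control shRNA) and 0.51 (QPRT shRNA). On the other side NIPSNAP2 stood at 177, 166, 328 and 291 FPKM, or 0.88 and 0.81 in the same order. SUMF2 was at 378, 358, 382 and 338 FPKM and CHCHD2 at 2871, 2343, 2420 and 2275 FPKM, nearly level between the lines. Around PHGDH 12 neighbours were tested, with a median line difference of -0.89 with control shRNA and -0.95 with QPRT shRNA. At least 2-fold lower in MDA-MB-468 were 4 of the 12 with each shRNA, beside 13.2% of all genes tested with control shRNA and 13.9% with QPRT shRNA. HSD3B1, NOTCH2 and SEC22B were so with both. The other was the pseudogene ENSG00000223804 with control shRNA, at -1.70 against 0.44 with QPRT shRNA, and NBPF26 with QPRT shRNA, at -1.22. At least 2-fold higher was 1 of the 12 with control shRNA, REG4, and 0 with QPRT shRNA, beside 18.3% and 17.4% of all genes tested. NOTCH2 was at 61.2, 76.8, 29.3 and 34.7 FPKM and WARS2 at 20.2, 22.4, 11.0 and 11.4 FPKM.

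The neighbours of SHMT1 and ALDH1L2, the members with the largest line differences, were closer to level, and those of MTHFD1L less so. Their median was -0.43 and -0.25 over 29 genes around SHMT1 and -0.073 and -0.45 over 14 genes around ALDH1L2, while around MTHFD1L it was 0.76 and 0.44 over 9 genes. With QPRT shRNA the neighbours of PHGDH had a median difference of 0.18 in BT-20 against 0.058 in MDA-MB-468, and those of PSPH of -0.081 and -0.044, against the lower values of PHGDH and PSPH themselves. DNA copy number was not analysed here.

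**Figure D4:**
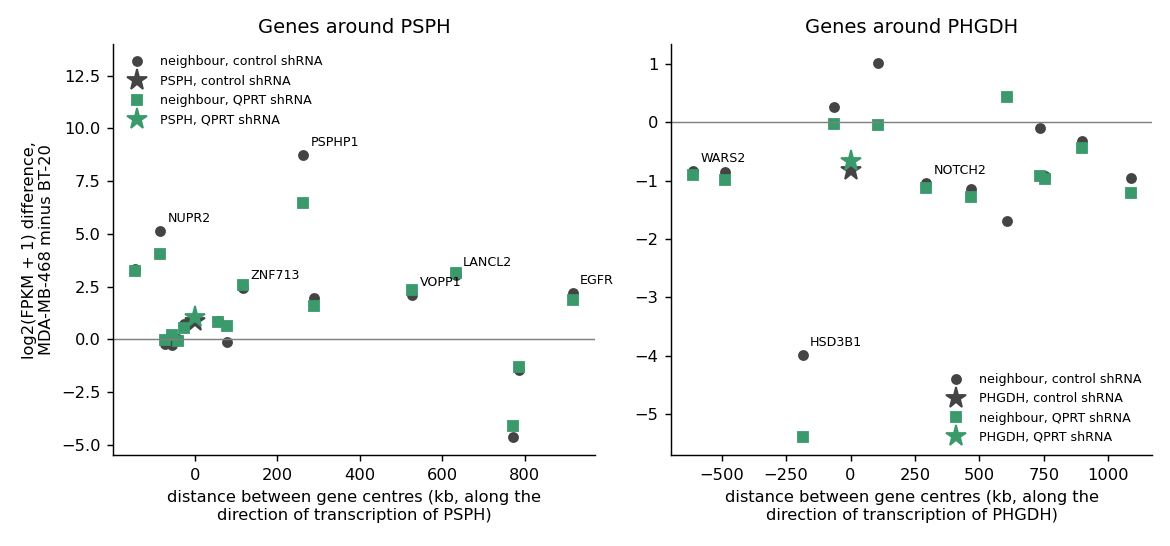
Difference of log2(FPKM + 1), MDA-MB-468 minus BT-20, for genes within 1 Mb of PSPH (left) and PHGDH (right) against their distance from the gene in kb, with dark circles for control shRNA, green squares for QPRT shRNA and stars for PSPH and PHGDH themselves. Of the 16 genes around PSPH, 8 lie at or above 1, and WARS2 and NOTCH2, on either side of PHGDH, lie below 0 with either shRNA.

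The closest pattern to PHGDH over the 4 libraries, by Euclidean distance of centred log2(FPKM + 1) among 10423 genes with a mean of at least 5 FPKM, was that of ERP44, an endoplasmic reticulum thioredoxin family protein, at a distance of 0.070. It was followed by LINC01139, at 0.085, MFF, a mitochondrial fission factor, at 0.093, and DTYMK, the thymidylate kinase, at 0.10. MFF, for example, was at 101, 72.2, 52.8 and 43.0 FPKM. None of the other 9 genes was among these 4.

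The core of the CCAAT-enhancer binding protein and ATF4 response element, TGATGNAA on either strand, was searched in the RefSeq promoter windows (GRCh38.p14), each from 250 bases before to 50 bases after a start. Of the 10 genes, 7 had a window, 11 windows in all, and PSPH, SHMT2 and ALDH1L2 had no entry. The motif was in windows of 2 of the 7 genes, MTHFD1L and SLC1A4, beside 4.46% of all 27305 genes with a window. By window it was in 4 of 11, beside 3.62% of all 35116 windows. MTHFD1L and SLC1A4 were also the only ones of the 7 with more than 1 window, so more sequence was searched for them. The 4 windows that held it were 3 overlapping windows of MTHFD1L, with the same match in each, and 1 of SLC1A4. The stretches around the matches are shown at chr6:150866297-150866364 for MTHFD1L and chr2:64989332-64989428 for SLC1A4, both on the plus strand and 5′ to 3′, with the motif in capitals. For SLC1A4 it is on the opposite strand and reads as its reverse complement.
MTHFD1L: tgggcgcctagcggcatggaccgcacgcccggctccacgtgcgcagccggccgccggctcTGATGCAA
SLC1A4: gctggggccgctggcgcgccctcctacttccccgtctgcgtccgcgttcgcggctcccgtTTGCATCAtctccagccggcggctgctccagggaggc

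A match is a description of the sequence, and no binding was measured here.

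In the other genes of the pathway no gene passed limma in the shRNA comparison, in any of 8 lists. Of ATF4 and its known targets all 20 were tested, and 17 were below 0 in BT-20 against 11 in MDA-MB-468, with a median of -0.28 and -0.070. Over all genes tested 42.98% and 47.64% were below 0. ATF4 itself was at 296, 260, 516 and 583 FPKM. DDIT4, a regulator of mTORC1 signalling, had the largest shRNA value of that list, at -0.55 in limma (SE 0.204, adjusted p = 0.447), and was at 59.5, 40.5, 129 and 87.1 FPKM. Between the lines 7 of the 20 were higher in MDA-MB-468 and 3 lower, against the background of 55.1% called in either direction, which also applies to the lists that follow. The furthest was TRIB3, a pseudokinase, at 2.23 (SE 0.192, limma adjusted p = 1.76e-29) and levels of 109, 85.6, 477 and 438 FPKM.

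Among 15 other folate genes, 13 were tested, of which 4 were higher in MDA-MB-468 and 5 lower. FTCD, which passes the one-carbon unit of histidine breakdown to folate, was at 59.8 and 36.9 FPKM in BT-20 against 0.16 and 0 in MDA-MB-468. Of the 4 glycine cleavage genes 3 were tested and AMT, the aminomethyltransferase, was the one that passed, at 1.58, 1.84, 4.13 and 4.46 FPKM. GCSH, which carries the lipoyl group, was at 122, 102, 86.6 and 84.3 FPKM and did not pass.

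The methionine cycle takes up one-carbon units for methylation. Of its 8 genes 6 were tested, 2 were higher in MDA-MB-468 and 2 lower. MAT2A, which makes S-adenosylmethionine, was higher, at 103, 135, 236 and 289 FPKM, and AHCY, which hydrolyses S-adenosylhomocysteine, was lower, at 218, 200, 79.7 and 80.1 FPKM. All 5 genes of transsulfuration and glutathione synthesis were tested, with 3 lower in MDA-MB-468 and CTH, the cystathionine gamma-lyase, higher at 2.57, 2.57, 14.8 and 10.6 FPKM.

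Of 8 other carriers 6 were tested, with MDA-MB-468 higher for 1 and lower for 1. The lower one was SFXN1, a mitochondrial serine carrier, at 204, 230, 90.7 and 74.8 FPKM, while SFXN3, a related protein, was at 3.60, 6.02, 3.92 and 5.96 FPKM and did not pass in either comparison. Among 11 enzymes that use serine for lipids or otherwise, 10 were tested, 4 were higher and 2 lower. SERINC3, a serine incorporator, was lower at 155, 180, 80.1 and 69.1 FPKM, and SPTLC3, a subunit of serine palmitoyltransferase, was higher at 1.60, 1.30, 2.64 and 4.72 FPKM.

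All 10 genes of purine synthesis, which uses formyl units from folate, were tested, with MDA-MB-468 higher for 1 and lower for 1. The lower was IMPDH1, an inosine monophosphate dehydrogenase, at 127, 133, 44.9 and 48.2 FPKM, and GMPS, the GMP synthetase, was at 37.6, 37.8, 47.1 and 34.1 FPKM and did not pass.

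**Figure D5:**
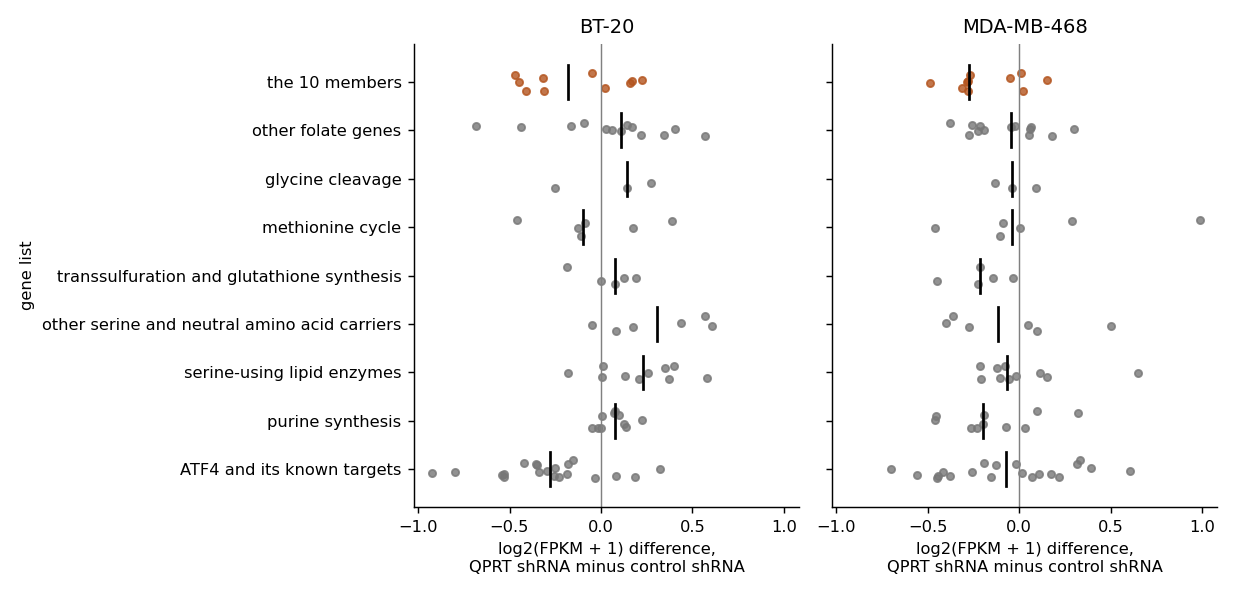
Difference of log2(FPKM + 1), QPRT shRNA minus control shRNA, in BT-20 (left) and MDA-MB-468 (right) for each tested gene of the 10 members (orange) and of 8 lists of the pathway (grey), with a black line at the median of each list. The median of ATF4 and its known targets lies at -0.28 in BT-20 against -0.070 in MDA-MB-468, and no gene of these lists passed limma over both lines.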

How the data were processed

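RNA-seq libraries of 4 groups, 1 library per cell line and shRNA, were analysed. The authors extracted RNA with Trizol, prepared TruSeq libraries, sequenced them on a NovaSeq system, trimmed reads and deposited FPKM values per Ensembl gene. The submitters' processing notes name FastQC, MultiQC, CASAVA, TopHat2 2.0.12 and HTSeq 0.6.1, with no role given, and the genome build and annotation are not given in the sources used here. The study's count test was not run, since FPKM are not counts.

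Symbols came from a reference gene name table (49414 of 50653 genes) and lengths and coordinates from GENCODE 29 on GRCh38 (49839 genes), with 27 repeated symbols left out. FPKM times mean transcript length gave whole fragments within 0.02 for 87.25% to 87.57% of values above 0 and 97.63% to 97.81% of those of genes with 1 transcript. PHGDH deviated by up to 0.1 fragment and its nearest whole numbers were used. Libraries were scaled to 10321996 to 10945948 fragments, and exact Clopper-Pearson 95% intervals of fragment ratios cover counting error only.

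Differences are of log2(FPKM + 1), which understates the change of low genes, over 14321 genes with a mean of at least 1 FPKM. With 1 library per group no test was made within a line. Limma 3.58.1 (R 4.3.3) was fitted with cell line and shRNA as terms, eBayes with a trend and Benjamini-Hochberg adjustment, and was tested on simulated data. Alternatives were a pseudocount of 0.1, upper quartile scaling, TPM, no filter, a mean of at least 5 FPKM, GC and length trends removed (lowess, fraction 0.3), no block, eBayes without trend, limma-voom on recovered fragments, a 1.5-fold limit and fragments of annotated copies added. Members and lists, marker lists included, were chosen with earlier results of these data known. Named genes are the members, QPRT, copies with fragments, the gene of each list with the largest limma difference in either comparison, any called in the shRNA comparison, and the 4 genes closest to PHGDH. ATF4, ALDH1L1, the genes around PHGDH and PSPH and the overlapping genes were named after their values were seen. Promoter sequences are from RefSeq. Part of the alignment of PSPHP1 to PSPH is not reported here. The remaining steps used Biopython 1.88, scipy 1.17.1, matplotlib 3.10.9, statsmodels 0.14.6, pandas 2.3.3 and numpy 2.4.6 under Python 3.11.15.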

Additional observations from a re-analysis of the deposited data

Results flagged for a closer look

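Values in opposite directions in the 2 lines, or with the 2 shRNAs, are given here, and none of these differences was tested, since each direction comes from 1 pair of libraries. For SHMT1 the log2 difference with QPRT shRNA was 0.33 higher in MDA-MB-468 (0.019) than in BT-20 (-0.31), although the first was below 0 with upper quartile scaling, as TPM and with the GC and length trend removed. In MTHFD1 the difference with QPRT shRNA in MDA-MB-468 (-0.28) minus that in BT-20 (0.17) was -0.45, and, by the same arithmetic, so was its line difference with QPRT shRNA (-0.19) minus that with control shRNA (0.26). MTHFD2 gave -0.33 in both ways, from -0.31 in MDA-MB-468 and 0.021 in BT-20, or from line differences of -0.091 with QPRT shRNA and 0.24 with control shRNA. The widest gap was that of ALDH1L2, at -0.65, from -0.49 in MDA-MB-468 and 0.16 in BT-20. With the GC and length trend removed the BT-20 values of MTHFD2 and ALDH1L2 were also below 0. SLC1A4 differed by 0.058, from 0.0085 in MDA-MB-468 and -0.049 in BT-20, with both counting intervals around 0, and the first was below 0 with upper quartile scaling and as TPM. PSAT1 had a line difference of 0.13 with QPRT shRNA and -0.0011 with control shRNA, 0.13 apart, and the second was 0.00028 with upper quartile scaling and 0.040 as TPM, so that the directions were then alike.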

How the results depend on the processing

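In the shRNA comparison over both lines, limma called 0 of the 10 members in the main fit and in all 9 alternatives, while the genes called, 90 in the main fit, were 0 with no block (17 at an unadjusted p under 0.05), 0 with no filter on low values (813), 45 with a mean of at least 5 FPKM and 1 with the GC and length trend removed. Between the lines, no filter left 0 members and 0 genes called (7482 at an unadjusted p under 0.05), against 7 and 7893; the cause was not tested. Within a line, genes at least 2-fold with QPRT shRNA, 244 in BT-20 against 271 in MDA-MB-468, were 792 and 756 with a pseudocount of 0.1, 370 and 417 with no filter, 103 and 96 with a mean of at least 5 FPKM, and 1286 and 1313 at a limit of 1.5-fold, with 0 of the 10 members at 2-fold in each. Between the lines, 2984 genes with control shRNA and 2923 with QPRT shRNA were at least 2-fold with a mean of at least 5 FPKM, and 7754 and 7592 at 1.5-fold, where 5 members passed with control shRNA and 6 with QPRT shRNA, against 3 and 4 at 2-fold. Of the single-gene values, 17 differences of 2 libraries moved and 267 did not, and 15 limma calls were lost while 183 values stayed on their side of the threshold. Leaving out 1 library leaves 0 residual degrees of freedom and no test, so it was not run. The cell line block of the limma fit is the only pairing, since no group has numbered replicates. With 1 library per group, differences within a line carry counting error only and no estimate of the spread between cultures.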
